A study of Mus musculus with 12 samples.

Results

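Nanog, Esrrb, Tfcp2l1, Tbx3, Nr5a2, Zfp42, Prdm14, Nr0b1 and Tcl1 were described here as a set of naive pluripotency genes. They were listed by name as genes known for this state, with no threshold on a measured value, but with earlier results of these data known. The set holds 9 of the 39017 genes in the deposited gene table, and all 9 passed the filter on low counts, which left 17885 genes. Not every member is a transcription factor in the strict sense, since Tcl1 is a co-activator of AKT kinases and Nr0b1 is an orphan nuclear receptor that lacks the classical DNA-binding domain.

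Polyadenylated RNA of mouse embryonic stem cells (mESCs) was sequenced in a wild-type line and a transgenic line, each grown with LIF in serum or in 2i, with 3 libraries labelled as biological replicates in each of the 4 groups. J1 is a male wild-type line. The line labelled 3B3-3l, called 3B3L here, derives from Dnmt3a-/- Dnmt3b-/- cells and carries a Dnmt3b transgene and a Flag-tagged Dnmt3l transgene, both driven by the CAG promoter, and the study made it to keep DNA methylation in 2i. 2i is serum-free N2B27 medium with the MEK inhibitor PD0325901 and the Gsk3 inhibitor CHIR99021. J1 in serum was kept on inactivated SNLP feeder cells, which were depleted before harvest, whereas 3B3L was kept on gelatin. In serum the culture surface and the line therefore cannot be told apart. Feeders were also depleted for the conversion to 2i, so in J1 the change of medium went with the loss of feeders. The parts of these in the J1 differences between serum and 2i cannot be told apart. 3B3L is a single selected line, so effects of the transgenes and of the line itself cannot be told apart either.

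Depth was even, between 37050652 and 44515395 estimated reads per library. Levels are given as CPM, a gene's estimated reads scaled to a common library total after TMM normalisation, and replicates of a group varied by 6.49% (common biological coefficient of variation). Replicate pairs of a group differed by more than sampling noise in all 12 cases, with a chi-square of 3.93 to 24.3 per degree of freedom. In the check of the targeted genes, in which reads of a transgene and of the endogenous locus cannot be told apart, the mean CPM of Dnmt3b was 413 in J1 serum, 44.1 in J1 2i, 891 in 3B3L serum and 928 in 3B3L 2i. In the same order it was 285, 52.8, 485 and 289.8 for Dnmt3l, and 166, 41.5, 32.1 and 4.67 for Dnmt3a, whose reads were thus lower but present in the line made from Dnmt3a-/- cells. The stem cell markers Pou5f1, Sox2, Sall4 and Utf1 were present in every group. Their summed level was 2197 to 2217 CPM in J1 serum, 1524 to 1859.8 in J1 2i, 1892 to 2241 in 3B3L serum and 1840.1 to 1880.1 in 3B3L 2i. Pou5f1 held most of this sum, and Sox2, Sall4 and Utf1 were lower in 2i than in serum in both lines.

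Naive pluripotency is the state of the pre-implantation epiblast, which mESCs hold in culture through LIF signalling and, in 2i, through block of the Erk pathway and release of Wnt target genes. Nanog, Esrrb, Tfcp2l1, Tbx3 and Nr5a2 are transcription factors of the network that sustains self-renewal in this state. Prdm14 is known to repress the Fgf pathway and the de novo methyltransferase genes, Nr0b1 is a co-repressor that binds Nr5a2 and Esrrb, and Zfp42 (Rex1) is a zinc finger protein widely used as a reporter of the naive state. As mESCs leave it, these genes are switched off and formative genes such as Otx2 and Pou3f1 come on.

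The genes lie on 6 chromosomes. In GRCm38.p6, Nanog (ENSMUSG00000012396) spans chr6:122707489-122714633, Esrrb (ENSMUSG00000021255) chr12:86361117-86521628, Tfcp2l1 (ENSMUSG00000026380) chr1:118627923-118685168 and Tbx3 (ENSMUSG00000018604) chr5:119670534-119684724. Nr5a2 (ENSMUSG00000026398) spans chr1:136842562-136960448, Zfp42 (ENSMUSG00000051176) chr8:43295067-43307009, Prdm14 (ENSMUSG00000042414) chr1:13113428-13127163, Nr0b1 (ENSMUSG00000025056) chrX:86191775-86195947 and Tcl1 (ENSMUSG00000041359) chr12:105216753-105222737.

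Promoter windows of 250 bases that end just before an annotated start were found in RefSeq (GRCm38.p6) for 7 of the 9 genes. Tbx3 and Prdm14 had no entry. The windows of Tfcp2l1, Nanog and Esrrb, which rose in 2i in both lines, and those of Zfp42 and Nr0b1, which did not, are shown 5′ to 3′ with CpG dinucleotides, the sites of DNA methylation, in capitals. The Esrrb window is that of the start used by Esrrb-002, the main transcript here, and it lies inside the gene. The end of the Tfcp2l1 window, from position 118627923 on, also lies within the gene span given above. The Nanog window is that of the upstream start, and the start of Nanog-001, the main Nanog transcript, lies downstream of it.
Tfcp2l1, chr1:118627695-118627944, plus strand: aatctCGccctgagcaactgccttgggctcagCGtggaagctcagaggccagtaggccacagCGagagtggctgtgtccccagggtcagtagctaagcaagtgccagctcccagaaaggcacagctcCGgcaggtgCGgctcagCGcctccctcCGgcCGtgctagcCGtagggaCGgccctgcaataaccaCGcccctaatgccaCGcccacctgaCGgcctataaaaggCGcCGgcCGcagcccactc
Nanog, chr6:122707239-122707488, plus strand: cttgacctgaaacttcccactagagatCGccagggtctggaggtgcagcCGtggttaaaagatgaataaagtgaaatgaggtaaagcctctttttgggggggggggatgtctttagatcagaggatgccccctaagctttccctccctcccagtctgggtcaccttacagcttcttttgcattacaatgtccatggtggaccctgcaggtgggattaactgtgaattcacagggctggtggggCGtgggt
Esrrb, chr12:86421394-86421643, plus strand: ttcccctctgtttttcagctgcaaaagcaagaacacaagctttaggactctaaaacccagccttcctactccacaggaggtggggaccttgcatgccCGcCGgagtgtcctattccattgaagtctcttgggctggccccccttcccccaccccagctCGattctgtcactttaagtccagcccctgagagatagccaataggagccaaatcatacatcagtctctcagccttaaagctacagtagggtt
Zfp42, chr8:43307010-43307259, minus strand: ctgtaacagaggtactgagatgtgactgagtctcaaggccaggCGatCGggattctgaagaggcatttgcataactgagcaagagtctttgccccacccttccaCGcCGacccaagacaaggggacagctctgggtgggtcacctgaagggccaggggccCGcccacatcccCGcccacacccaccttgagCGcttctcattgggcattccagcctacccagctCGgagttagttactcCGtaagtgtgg
Nr0b1, chrX:86191525-86191774, plus strand: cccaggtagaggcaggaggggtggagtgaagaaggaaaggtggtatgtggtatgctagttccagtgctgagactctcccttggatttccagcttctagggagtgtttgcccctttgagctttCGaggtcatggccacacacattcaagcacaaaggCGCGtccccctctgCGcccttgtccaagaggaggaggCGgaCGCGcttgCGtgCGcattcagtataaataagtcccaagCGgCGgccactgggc

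CpG content varied as much among the genes that rose as between them and the others. The Tfcp2l1 window held 16 CpGs, the Nanog window 3 and the Esrrb window 3, while the Zfp42 window held 9 and the Nr0b1 window 11. Over all 32851 windows of this length the median was 6, with quartiles of 2 and 16. The motifs below were searched on both strands. AAGGTCA, the extended site of Esrrb and Nr5a2, was in none of the windows of the 7 genes and in 4.08% of all windows. CTTTGAT, a site of TCF factors, was likewise in none, and in 3.21% of all windows. TTTGCAT, the octamer core bound by Oct4, was in 4.12% of all windows, in the Nanog window above with its last base 69 bases before the start, and in the Zfp42 window 179 bases before the start. Counted from the start of Nanog-001, the Nanog match lies 145 bases before it, and the window of that start holds 2 CpGs. A match describes letters only, and binding was not measured in these libraries.

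All 9 genes changed between serum and 2i in both lines. Nanog, Esrrb, Tfcp2l1, Tbx3, Nr5a2, Prdm14 and Tcl1 were higher in 2i in J1 and in 3B3L, Nr0b1 was lower in both, and Zfp42 was lower in 2i in J1 and higher in 2i in 3B3L. The factors with the largest fold were Tbx3 and Tfcp2l1, at 4.75- to 5.65-fold. In bulk RNA, fewer cells with a transcript and less of it per cell cannot be told apart. A gene was called at an adjusted p under 0.05 (edgeR quasi-likelihood test, Benjamini-Hochberg over all genes tested). In J1, 7 genes were called higher in 2i and 2 lower, where 66.1% of all genes tested were called, 33.2% higher and 32.9% lower. In 3B3L, 8 were called higher and 1 lower, where 65.4% of all genes were called, 32.7% in each direction. A call by itself is thus common in these data, and the size of the change says more. The median log2 fold change of the 9 genes was 0.81 in J1 and 0.78 in 3B3L, against 0.01 over all genes tested in each line. Leaving out the sign, the medians were 0.81 and 0.78, against 0.44 and 0.43 over all genes. The 2i and serum libraries of a line did not overlap for any of the 9 genes, as for 68.7% of all genes in the J1 comparison, with 34.7% on the high and 34.0% on the low side. In 3B3L this share was 69.6%, with 34.9% and 34.7%.

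**Figure D1:**
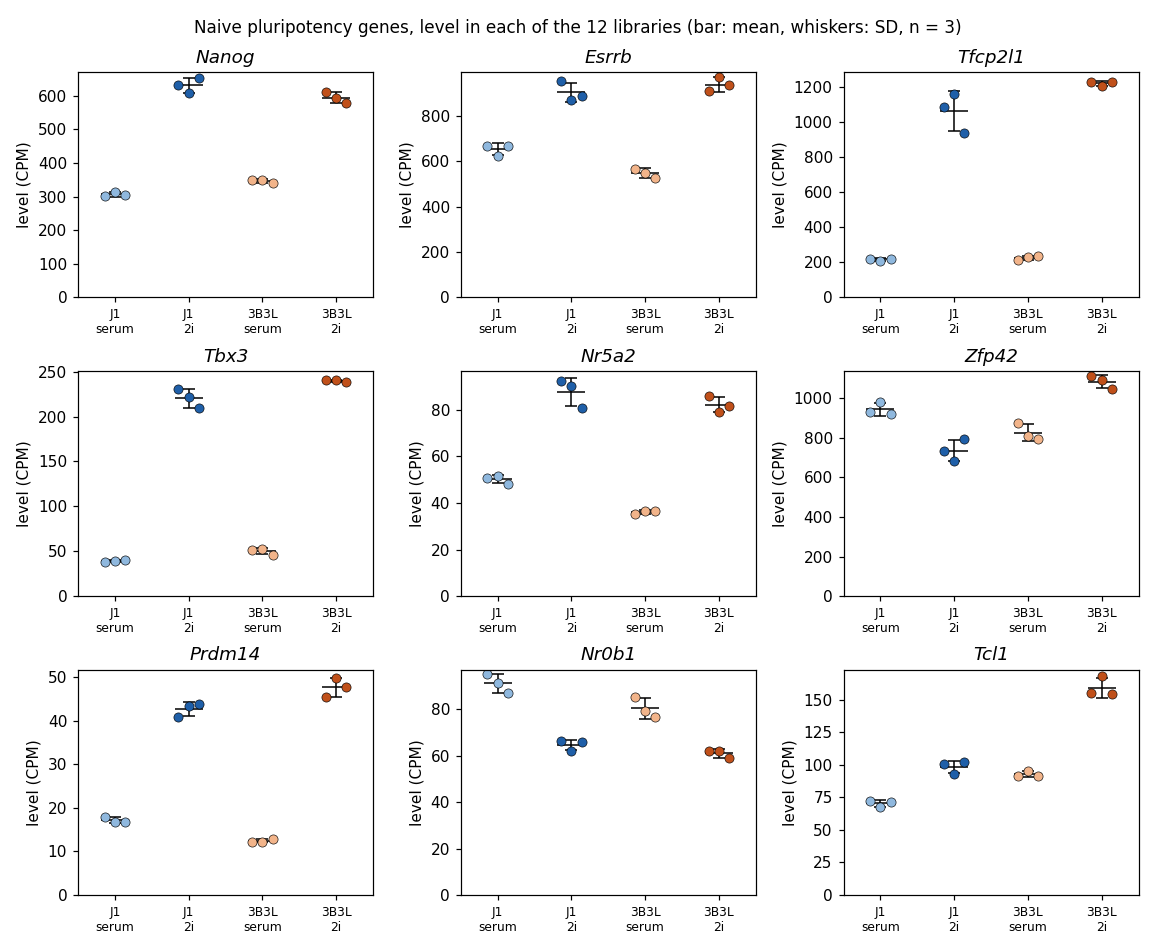
Level (CPM, linear axis from 0) of each gene in the 12 libraries, 1 panel per gene, with the mean and SD of the 3 libraries of each group. Points of both 2i groups lie above both serum groups for Nanog, Esrrb, Tfcp2l1, Tbx3, Nr5a2 and Prdm14, below them for Nr0b1, and on both sides of them for Zfp42, while J1 2i and 3B3L serum overlap for Tcl1.

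Tfcp2l1, a CP2-family factor that acts downstream of LIF and Stat3, stood at 221, 208 and 221 CPM in the J1 serum libraries and at 1088, 1162 and 941 in those of J1 2i. In 3B3L it was at 212, 228 and 237 CPM in serum and at 1229, 1208 and 1233 CPM in 2i. The serum groups overlapped and the 2i groups did not, with 3B3L 2i highest. The log2 fold change of 2i over serum was 2.30 ± 0.07 (SE; adjusted p = 1.66e-13) in J1 and 2.44 ± 0.07 (adjusted p = 6.71e-14) in 3B3L. The difference between these effects was 0.14, with a 95% confidence interval of -0.06 to 0.34 (adjusted p = 0.267), and so was not resolved.

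Tbx3, a T-box repressor that is very uneven between mESCs in serum, rose from 37.8, 39.3 and 39.9 CPM in J1 serum to 230.2, 222 and 209 in J1 2i. In 3B3L it rose from 51.9, 53.1 and 46.2 CPM to 240.4, 240.3 and 238 CPM. No groups overlapped, and J1 serum was lowest. These were the largest folds in J1, 5.65-fold (log2 2.50 ± 0.06, adjusted p = 9.29e-15), and the second largest in 3B3L, 4.75-fold (log2 2.25 ± 0.06, adjusted p = 1.86e-14).

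Prdm14 had the lowest level of the set, with 18, 16.8 and 16.8 CPM in J1 serum, 40.8, 43.4 and 43.8 in J1 2i, 12.2, 12.2 and 12.8 in 3B3L serum, and 45.5, 49.8 and 47.7 in 3B3L 2i. No groups overlapped: 3B3L was the lower line in serum and the higher line in 2i. Its fold change was 2.48 in J1 and 3.83 in 3B3L.

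Nanog, the homeodomain factor at the head of the network, went from 300.2, 315 and 305 CPM to 632, 609 and 653 CPM in J1. In 3B3L it went from 349, 350.3 and 339.6 CPM to 609.7, 594 and 578 CPM. The 2i groups touched, the serum groups did not, and the rise was 2.06-fold in J1 (log2 1.04 ± 0.04, adjusted p = 9.33e-12) and 1.72-fold in 3B3L (log2 0.78 ± 0.04, adjusted p = 2.52e-10).

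Esrrb and Nr5a2, which like Nr0b1 are orphan nuclear receptors, shared an order of groups in serum. Esrrb, a direct target of the Gsk3 and Tcf7l1 axis, was at 667, 625 and 669 CPM in J1 serum, 953, 871 and 888 in J1 2i, 568, 549 and 525 in 3B3L serum and 908, 972 and 935 in 3B3L 2i. Nr5a2, which can activate Pou5f1, was at 50.8, 51.4 and 48.3 CPM in J1 serum, 92.2, 90.3 and 80.9 in J1 2i, 35.3, 36.7 and 36.4 in 3B3L serum and 85.8, 79.2 and 81.7 in 3B3L 2i. For each of them 3B3L serum was lowest, apart from J1 serum, and the 2i groups overlapped. The rise of Esrrb was 1.38-fold in J1 and 1.72-fold in 3B3L, and that of Nr5a2 was 1.75-fold (log2 0.81 ± 0.06, adjusted p = 2.93e-09) and 2.28-fold (log2 1.19 ± 0.06, adjusted p = 2.86e-11).

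Tcl1 read 72.4, 67.4 and 71.4 CPM in J1 serum, 100.3, 93.1 and 102 in J1 2i, 91.2, 95.2 and 91.7 in 3B3L serum and 155, 168 and 154 in 3B3L 2i. Each line rose with 2i, each medium was higher in 3B3L, and 3B3L serum overlapped J1 2i. The rise in 2i was 1.40-fold in J1 (log2 0.48 ± 0.05, adjusted p = 5.76e-07) and 1.72-fold in 3B3L (log2 0.78 ± 0.05, adjusted p = 1.45e-09). Its paralogs Tcl1b1 to Tcl1b5 had at most 5 estimated counts in any library.

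Nr0b1 was the member that fell in 2i in both lines. Its libraries read 95.3, 91.5 and 87.2 CPM in J1 serum, 66.2, 62.0 and 65.9 in J1 2i, 85.3, 79.4 and 76.6 in 3B3L serum, and 62.3, 62.0 and 59.0 in 3B3L 2i. Both 2i groups lay below both serum groups and overlapped each other. The log2 fold change was -0.50 ± 0.05 in J1 (adjusted p = 6.05e-07) and -0.40 ± 0.05 in 3B3L (adjusted p = 7.84e-06). The difference between lines, 0.10, had a 95% confidence interval of -0.06 to 0.26 (adjusted p = 0.325).

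Zfp42 had no shared direction. In J1 it fell from 932, 981 and 919 CPM in serum to 734, 682 and 792 CPM in 2i (log2 -0.36 ± 0.06, adjusted p = 5.3e-05). In 3B3L it rose from 874, 812 and 792 CPM in serum to 1114, 1090.5 and 1048 CPM in 2i (log2 0.39 ± 0.06, adjusted p = 2.06e-05). J1 2i was the lowest group and overlapped 3B3L serum, and 3B3L 2i was the highest, apart from all others. RefSeq lists pseudogenes of Nanog and of Zfp42, and how reads were divided between them and the genes was not analysed here.

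**Figure D2:**
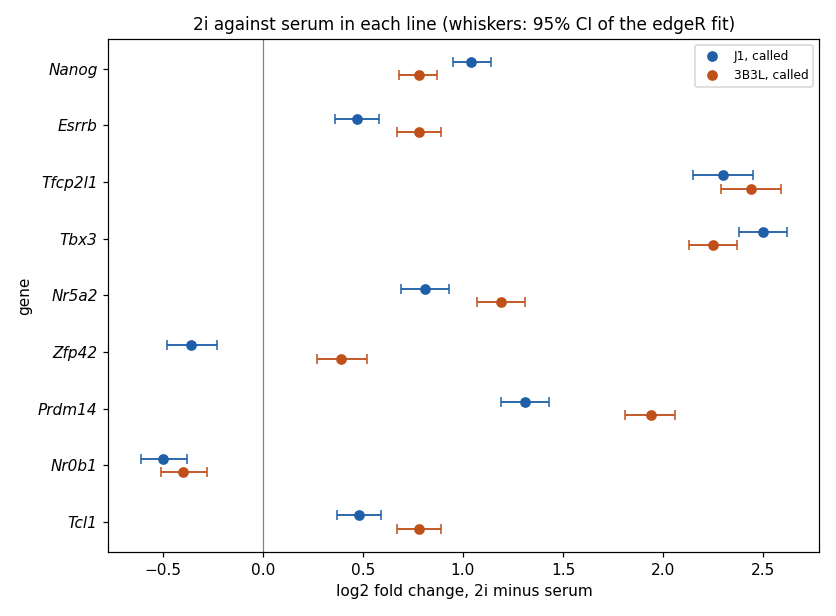
Log2 fold change of 2i over serum for each gene in J1 and in 3B3L, with whiskers for the 95% confidence interval of the edgeR fit and a line at 0. Tbx3 and Tfcp2l1 lie between 2.25 and 2.50 in both lines, Nr0b1 lies below 0 in both, and the Zfp42 points fall on opposite sides of 0, at -0.36 in J1 and 0.39 in 3B3L.

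The size of the 2i effect differed between the lines for most of the genes. In the test of the difference, 3B3L minus J1, 5 genes were called higher (Esrrb, Nr5a2, Zfp42, Prdm14 and Tcl1), 2 lower (Nanog and Tbx3) and 2 were not called (Tfcp2l1 and Nr0b1). Over all genes 34.7% were called, 16.3% higher and 18.3% lower. The median difference of the 9 genes was 0.30 on the log2 scale, against -0.03 over all genes, and without the sign it was 0.30 for both. Zfp42 had the largest difference, 0.75 ± 0.08 (adjusted p = 6.1e-06), followed by Prdm14 at 0.63 ± 0.08 (adjusted p = 2.87e-05). Nr5a2 differed by 0.38 ± 0.08 (adjusted p = 0.00165), Esrrb by 0.31 ± 0.07 (adjusted p = 0.0039) and Tcl1 by 0.30 ± 0.07 (adjusted p = 0.00516). Nanog differed by -0.26 ± 0.06 (adjusted p = 0.00423) and Tbx3 by -0.25 ± 0.08 (adjusted p = 0.0203). The call of Tbx3 was lost without J1 2i replicate 1 (-0.22, adjusted p = 0.0566) and without 3B3L serum replicate 2 (-0.21, adjusted p = 0.0682). Zfp42 was the gene in which a fall stood against a rise. The other 6 genes that differed moved the same way in both lines by unequal amounts.

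Set side by side in serum, the lines differed for 8 of the 9 genes, in no common direction. Nanog (log2 0.18 ± 0.04, adjusted p = 0.00549), Tbx3 (0.37 ± 0.06, adjusted p = 9.91e-05) and Tcl1 (0.40 ± 0.05, adjusted p = 2.18e-05) were higher in 3B3L. Nr5a2 (-0.47 ± 0.06, adjusted p = 9.66e-06), Prdm14 (-0.47 ± 0.06, adjusted p = 2.15e-05), Esrrb (-0.26 ± 0.05, adjusted p = 0.00105), Zfp42 (-0.19 ± 0.06, adjusted p = 0.0163) and Nr0b1 (-0.18 ± 0.05, adjusted p = 0.0129) were lower. Tfcp2l1 was not called, at 0.06 with a 95% confidence interval of -0.08 to 0.20. These are 3 genes higher and 5 lower, where 38.7% of all genes were called, 21.5% higher and 17.2% lower. The same 8 genes had libraries that did not overlap, as did 50.9% of all genes (28.4% higher, 22.4% lower). The median of the 9 genes was -0.18, against 0.03 over all genes. Zfp42 lost its call without J1 serum replicate 2 (-0.16, adjusted p = 0.0664), 3B3L serum replicate 2 (-0.18, adjusted p = 0.0609) or 3B3L serum replicate 3 (-0.16, adjusted p = 0.0697). Nr0b1 lost it without J1 serum replicate 1 (-0.15, adjusted p = 0.0681), 3B3L serum replicate 2 (-0.17, adjusted p = 0.0507) or 3B3L serum replicate 3 (-0.15, adjusted p = 0.0653).

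Markers of other cells moved with these groups. The summed level of 10 fibroblast markers ran from 60.7 to 65.7 CPM in J1 serum and from 76.2 to 87.1 in 3B3L serum, but from 30.0 to 30.6 in J1 2i and from 18.5 to 18.9 in 3B3L 2i. Col1a1 carried much of it in serum, at 28.1 CPM in J1 and 35.5 CPM in 3B3L, and Pdgfrb went the other way in J1, with 6.31 CPM in serum and 19.4 in 2i (log2 1.62 ± 0.10, adjusted p = 5.85e-10), against 7.39 and 7.33 in 3B3L. Dcn stayed at or below 0.169 CPM in the group means and Lum at or below 0.00858 CPM. At most 3 counts in every library were found for 1 of the 10 markers in each serum group and 4 in each 2i group. The summed level of 7 primitive endoderm markers was 8.70 to 9.34 CPM in J1 serum, 16.0 to 17.4 in 3B3L serum, 6.38 to 7.09 in J1 2i and 7.91 to 8.46 in 3B3L 2i, and 1 of the 7 was at or below 3 counts in each 2i group and none in serum. Dab2 had the largest fall in CPM of that list, with 5.11 CPM in serum against 1.22 in 2i for J1, and 9.07 against 1.88 for 3B3L, while Gata4 (2.23 to 4.14 CPM, adjusted p = 4.74e-05) and Sox17 (0.132 to 0.311 CPM, adjusted p = 0.00824) were called higher in 2i in J1. Whether these reads came from other cells or from the mESCs themselves was not tested. Any part of other cells in the differences of the naive genes was not tested either.

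Between the lines in 2i, Zfp42 and Tcl1 stood farthest apart. In the comparison of 3B3L with J1, 4 genes were called higher, none lower and 5 not at all, where 45.9% of all genes were called, 23.0% higher and 22.9% lower. Libraries did not overlap for 5 genes, all higher in 3B3L, and for 52.6% of all genes (26.6% higher, 26.0% lower). The median of the 9 genes was 0.12 on the log2 scale, or 0.12 without the sign, against 0.01 and 0.27 over all genes. In serum the value without the sign was 0.26 for the 9 genes and 0.23 over all genes.

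Tcl1 and Zfp42 were the genes with a large line difference in 2i, at 1.62-fold (log2 0.69 ± 0.05, adjusted p = 3.51e-08) and 1.47-fold (0.56 ± 0.06, adjusted p = 1.48e-06). For Nanog the difference was -0.09 (95% confidence interval -0.18 to 0.01), for Esrrb 0.05 (-0.06 to 0.16), for Tbx3 0.12 (0.01 to 0.23), for Nr5a2 -0.09 (-0.21 to 0.02) and for Nr0b1 -0.08 (-0.20 to 0.03), with adjusted p between 0.0763 and 0.426. Tfcp2l1 (0.20 ± 0.07, adjusted p = 0.0204) and Prdm14 (0.16 ± 0.05, adjusted p = 0.0225) were called, but not firmly.

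Leaving out single libraries moved the smaller of these calls. Tfcp2l1 lost its call without J1 serum replicate 1 (0.18, adjusted p = 0.0559) or 3 (0.18, adjusted p = 0.0533), J1 2i replicate 3 (0.12, adjusted p = 0.0825), or 3B3L 2i replicate 1 (0.20, adjusted p = 0.0522), 2 (0.19, adjusted p = 0.0714) or 3 (0.20, adjusted p = 0.056). Prdm14 lost it without J1 serum replicate 1 (0.13, adjusted p = 0.0585), 2 (0.14, adjusted p = 0.0569) or 3 (0.13, adjusted p = 0.0645), J1 2i replicate 1 (0.13, adjusted p = 0.101), or 3B3L 2i replicate 2 (0.10, adjusted p = 0.199) or 3 (0.16, adjusted p = 0.0596). Calls were gained by Nanog without J1 serum replicate 2 (-0.11, adjusted p = 0.0453), Nr5a2 without J1 2i replicate 3 (-0.15, adjusted p = 0.024) and Tbx3 without 3B3L serum replicate 3 (0.12, adjusted p = 0.0401).

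**Figure D3:**
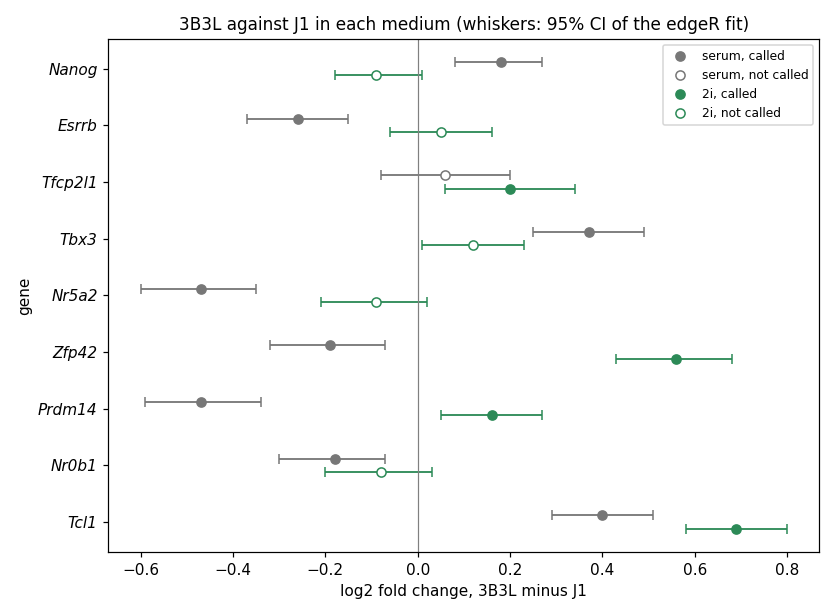
Log2 fold change of 3B3L over J1 for each gene in serum (grey) and in 2i (green), with 95% confidence intervals of the edgeR fit and filled points where the adjusted p was under 0.05. In serum the points run from -0.47 to 0.40, while in 2i all but Zfp42 (0.56) and Tcl1 (0.69) lie between -0.09 and 0.20.

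Levels can be compared between genes only per length of transcript. On this scale, RPKM, which is CPM per kilobase of effective transcript length, Zfp42 was highest in every group, with means of 578, 453, 509 and 662 RPKM in J1 serum, J1 2i, 3B3L serum and 3B3L 2i. Nanog followed in both 2i groups, with 311 and 291 RPKM, ahead of Esrrb with 268 and 269.7 RPKM. In serum the order was turned in J1, with 193 RPKM for Esrrb and 150.3 for Nanog, and not in 3B3L, with 161 and 170.4. Tfcp2l1 moved from 23.8 and 24.8 RPKM in serum, below Nr0b1 (55.7 and 49.3), to 117 and 134 RPKM in 2i, above Nr0b1 (39.6 and 37.2). Tbx3 moved past Nr0b1 in the same way, from 13.0 and 16.8 RPKM to 70.9 and 73.2. The Tbx3 values include the 485-base non-coding transcript Tbx3-004, which held 2.46% to 3.96% of the Tbx3 reads in the group means. Being short, it weighs more per length than in reads. Prdm14 was lowest in every group, at 5.21 to 19.8 RPKM.

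**Figure D4:**
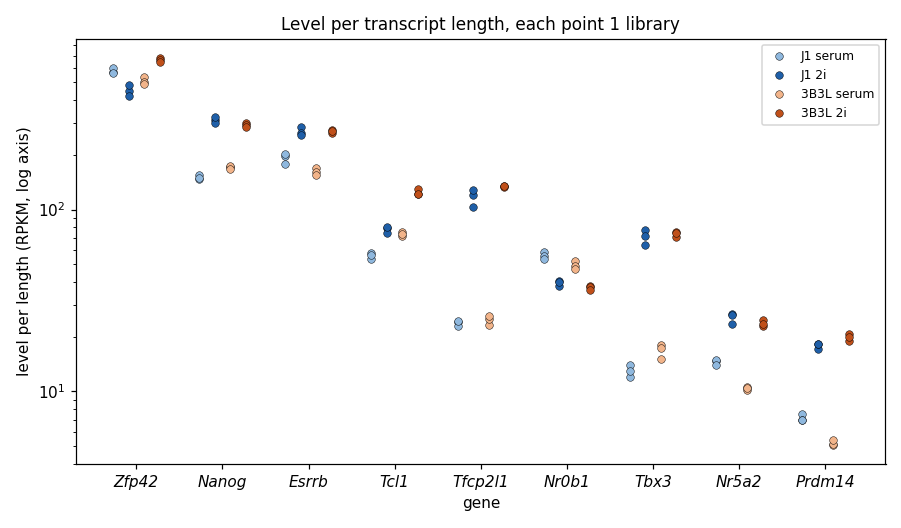
Level per transcript length (RPKM, log axis) of each gene, with 1 point per library and 4 groups side by side for each gene. Zfp42 lies highest in every group and Prdm14 lowest, and Tfcp2l1 and Tbx3 lie below Nr0b1 in serum and above it in 2i.

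For most of the genes 1 transcript held most of the TPM, the abundance scaled for transcript length and library total. Nanog-001 made up 97.4% to 98.6% of Nanog TPM in the group means, and Nr5a2-202 made up 99.8% or more of Nr5a2. Esrrb-002 held 76.3% to 79.3% of Esrrb TPM and the shorter Esrrb-005 held 18.2% to 21.6%. Tcl1-201 held 92.9% and 95.1% in J1 serum and 2i and 90.8% and 90.5% in 3B3L. The Tcl1 transcripts matched here held 49822.55 of the 51811.72 estimated reads of the gene over all libraries. The Tcl1 shares and RPKM leave out the rest. Tbx3 was the mixed gene: Tbx3-001 held 30.2% to 34.8% and Tbx3-002 held 25.2% to 30.2%, and the 485-base non-coding Tbx3-004 held 25% to 37.0% of TPM but only 2.46% to 3.96% of the reads. Tfcp2l1, Zfp42, Prdm14 and Nr0b1 were each quantified as 1 transcript. These shares rest on the quantification's division of shared reads and were not tested between groups.

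Over the 12 libraries most of the genes that rose ran closely together. Pearson's r of log2 CPM was 0.992 between Nanog and Tbx3, 0.993 between Tfcp2l1 and Tbx3, 0.984 between Esrrb and Prdm14 and 0.975 between Nr5a2 and Prdm14. It was -0.941 between Nanog and Nr0b1. Zfp42 stood outside, with r between -0.05 and 0.454 to all other members. The libraries form 4 groups and share the medium, so these values describe 4 points more than 12.

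Among 9271 other genes with at least 10 CPM on average, many tracked the genes that rose, and few tracked Zfp42. The number with r over 0.95 was 596 for Nanog, 310 for Esrrb, 713 for Tfcp2l1, 726 for Tbx3, 246 for Nr5a2, 482 for Prdm14, 128 for Tcl1 and 108 for Nr0b1, but 6 for Zfp42. Most alike were Anxa4 (r = 0.998) and Echs1 (0.996) for Nanog, Frmd4a (0.999) and Kit (0.998) for Tfcp2l1, Zc3hav1 (0.999) and Ctsb (0.999) for Tbx3, and Gsr (0.997) and Gpx1 (0.995) for Prdm14. For Esrrb they were Ntn1 (0.995) and Grn (0.994), for Nr5a2 Pdp2 (0.995) and Slc30a1 (0.992), and for Tcl1 Mta2 (0.996) and Abcb1a (0.992). Pml (0.982) was among those of Nr0b1. Zfp42 was followed by Chga (0.972), the secretory granule protein chromogranin A, and Baiap2 (0.963). Mean CPM of Chga was 13.6 in J1 serum, 8.06 in J1 2i, 9.39 in 3B3L serum and 17.8 in 3B3L 2i, and so it had J1 2i lowest and 3B3L 2i highest, as Zfp42 did.

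Other genes of the pluripotency network were called in both directions, as genes in general were. Of 19 network genes, 5 were called higher in 2i in J1, 8 lower and 6 not called, with a median log2 fold change of -0.08, where 33.2% of all genes were called higher and 32.9% lower and the median was 0.01. In 3B3L, 10 were called higher, 5 lower and 4 not called, with a median of 0.18, where 32.7% of all genes were called in each direction and the median was again 0.01. More of the list was thus called lower than higher in J1, and more higher than lower in 3B3L. Whether the list as a whole differed from genes in general was not tested. The 3 with the highest level were Pou5f1, Dppa5a and Tdgf1. Pou5f1 (Oct4), the core factor of pluripotency, was called in no comparison, with -0.07 ± 0.08 in J1 (adjusted p = 0.426) and 0.12 ± 0.08 in 3B3L (adjusted p = 0.185). Dppa5a, an RNA-binding protein gene of pluripotent cells, rose in both lines, by 0.28 ± 0.07 in J1 (adjusted p = 0.00299) and 0.84 ± 0.07 in 3B3L (adjusted p = 4.57e-08), and its effect was larger in 3B3L by 0.56 ± 0.10 (adjusted p = 0.000636). Tdgf1, a Nodal co-receptor gene, had mean CPM of 483 and 485 for J1 serum and 2i and 462 and 425 for 3B3L, and was not called between media in either line.

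Formative genes moved the other way. Of 10, 9 were called lower and 1 higher in 2i in J1, and 8 lower, 1 higher and 1 not called in 3B3L, with medians of -2.44 and -1.88. Over all genes 32.9% were called lower in J1 and 32.7% in 3B3L, with a median of 0.01 in each line. Zic2, a zinc finger factor of the formative state, fell by 0.86 on the log2 scale in J1 (adjusted p = 4.78e-09) and by 1.76 in 3B3L (adjusted p = 1.05e-12). Etv5 and Etv4 are Ets factors induced by Fgf and Erk signalling. Etv5 fell in J1, 455 CPM against 297 (log2 -0.61 ± 0.04, adjusted p = 2.95e-09), and was not called in 3B3L, at 486 and 509 CPM (0.07 ± 0.04, adjusted p = 0.179), and the effects differed by 0.68 ± 0.06 (adjusted p = 6.35e-07). Etv4 was the gene that rose, in J1 (58.2 to 71.2 CPM) as in 3B3L (60.1 to 75.3 CPM).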

How the data were processed

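Per the study's methods, stranded mRNA reads were quantified with Sailfish on RefSeq transcript models of mm10 and summed per gene with tximport. The deposited gene IDs are those of Ensembl, however, and the exact annotation behind the counts was not established here. The authors deposited estimated counts per gene and, for each library, estimated counts and TPM per transcript. Library totals were 37050652 to 44515395 estimated counts. Here gene counts were rounded to whole numbers, genes were filtered with filterByExpr, and 1 model of 4 groups was fitted to all 12 libraries with edgeR 4.0.16 (R 4.3.3; TMM, quasi-likelihood test) for 5 contrasts, called at an adjusted p of 0.05 over all 17885 genes tested. DESeq2 1.42.0 was an alternative, with other filters, scalings, samples in the fit, length offsets and single libraries left out. The fit was tested on simulated data. CPM used TMM library sizes, and RPKM was computed from transcript counts and effective lengths. For likeness, genes were ranked by Pearson's r of log2 CPM (prior count of 2), and the 2 highest are named for each member, except 1 gene that is not reported here. The 3 genes highest in CPM are named for each of the network and formative lists.

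Symbols were matched for 85.6% of genes, which hold 98.4% of reads, and Tfcp2l1 was found under its older symbol Tcfcp2l1. Transcript names and their genes are from GENCODE vM1, which matched 90.4% of the transcripts. Promoter sequences and coordinates are from RefSeq (GRCm38.p6). The members and lists were chosen with earlier results of these data known, so no list is independent support for its direction. Library pools were not analysed here. The p-values rest on the spread between replicate cultures within a group, estimated over all 4 groups together. They do not measure a spread between independent lines.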

Additional observations from a re-analysis of the deposited data

Results flagged for a closer look

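The effect of 2i differed between J1 and 3B3L, by the interaction term of the edgeR fit, for 7 of the 9 genes, against 34.7% of all genes tested. This was not particular to the 9 genes. Of the 19 network genes, 11 were called higher in this test and 3 lower, and of the 10 formative genes 3 higher and 5 lower. Over all genes tested, 16.3% were called higher and 18.3% lower. The median difference was 0.39 for the network genes and -0.38 for the formative genes, against -0.03 over all genes. Without the sign, the median difference was 0.30 for the 9 genes and 0.30 over all genes, but 0.48 for the network genes and 0.94 for the formative genes. In 3B3L minus J1 on the log2 scale, the difference was -0.26 for Nanog, 0.31 for Esrrb, -0.25 for Tbx3, 0.38 for Nr5a2, 0.75 for Zfp42, 0.63 for Prdm14 and 0.30 for Tcl1. In Zfp42 the groups moved in opposite directions, with all 3 libraries of J1 2i below all 3 of J1 serum and all 3 of 3B3L 2i above all 3 of 3B3L serum. For Nanog the larger effect was in J1, 2.06-fold against 1.72-fold, where serum started lower. Tbx3, with its larger effect in J1, also started lower in J1 serum. For Prdm14 and Nr5a2 the larger effect was in 3B3L, where serum started lower as well, and Esrrb did likewise. The difference of the effects is the line difference in 2i minus that in serum. Where the 2i levels nearly match, the line that is lower in serum must show the larger rise, so this order is no separate result. Tcl1 was higher in 3B3L in both media. Its effect was larger in 3B3L, 0.78 against 0.48 on the log2 scale, where serum started higher, at 92.7 against 70.4 CPM. J1 serum and 3B3L serum differed in culture surface too, which enters each of these differences, and its part cannot be told apart from that of the line.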

How the results depend on the processing

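No called change turned direction under any alternative run. The changes from serum to 2i kept all their calls, with 7 genes higher and 2 lower in J1 and 8 and 1 in 3B3L under each alternative, DESeq2's Wald test, its size factors and length offsets included. The line comparison in 2i was the weak point. Fitted with only the libraries compared, 2 genes were called higher in place of 4, as Tfcp2l1 (0.19, adjusted p = 0.059) and Prdm14 (0.15, adjusted p = 0.0715) lost their calls. With at least 10 counts required in every library, 1 gene was called lower in place of none, Nanog (-0.11, adjusted p = 0.0351). With no filter on low counts, Prdm14 lost its call (0.15, adjusted p = 0.0945). Without single libraries, the genes called higher in 2i ranged from 2 to 5 and lower from 0 to 1, those called lower in serum from 3 to 5, and those with a smaller 2i effect in 3B3L from 1 to 2.

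Replicate numbers did not pair the libraries: their deviations from the group means correlated between -0.12 and 0.06 over 18 pairs of groups and numbers, and a replicate block left 7 genes higher and 2 lower in J1 and changed no other call of the 9 genes. With rlog values, 15 of the 18 most alike genes stayed among the 2 highest. Of 36 transcript shares, 24 moved by more than the replicate SD when estimated reads replaced TPM. The short transcript Tbx3-004 rests on fewer reads than the other transcripts named, which limits the precision of its share.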
